A study of Homo sapiens with 12 samples.

Results

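The epithelial sodium channel (ENaC) and its regulators, 8 genes in all, were followed through 12 mRNA libraries of 2 pancreatic ductal adenocarcinoma (PDAC) cell lines. The 8 genes are those encoding the channel subunits (SCNN1A, SCNN1B, SCNN1G and SCNN1D), the ubiquitin ligase NEDD4L, the kinase SGK1 and the serine proteases PRSS8 and ST14. They were found by gene symbol in the deposited tables, where each has 1 row of 48114 listed genes. The set was chosen with the measured levels of these genes across the 4 groups in view, so the levels and differences of the 8 genes are given as a description, without p-values. PANC-1 cells, a PDAC line with mesenchymal features, had been transfected with a control siRNA (siCtrl), with siRNA against QKI (siQKI) or with siRNA against RBFOX2 (siRBFOX2), the targeting siRNAs at 40 nM. HPAF-II cells, a PDAC line with epithelial features, had received siCtrl alone. All cells were collected after 48 h, and each of the 4 groups holds 3 libraries, described in the labels as biological replicates. Each line is a single established culture, so a difference between PANC-1 and HPAF-II cannot be told apart from any other difference between those cultures.

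ENaC lets sodium enter epithelial cells through the apical membrane, and it sets the rate of sodium uptake in kidney collecting duct, distal colon and airway. The usual channel is built from alpha, beta and gamma subunits, whereas the delta subunit can stand in for alpha. NEDD4L tags channels at the membrane with ubiquitin, which leads to their removal. SGK1, a kinase induced by corticosteroids, phosphorylates NEDD4L and so keeps channels at the surface. Prostasin (PRSS8) and matriptase (ST14) are membrane-anchored proteases that belong to the channel-activating cascade. The duct cells of the normal pancreas are known for bicarbonate secretion rather than for sodium uptake through ENaC. QKI and RBFOX2 are RNA-binding proteins that control splicing, and QKI also acts on mRNA stability and translation. Counts per gene, as used here, do not separate isoforms.

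The letters that QKI and RBFOX2 are known to prefer were looked up in the longest protein-coding transcript of each gene (GENCODE v29, GRCh38), on the transcript strand only, because both proteins were knocked down. The QKI motif was searched as ACTAAC and the RBFOX motif as TGCATG, which do not overlap each other in any of the transcripts listed here. ACTAAC was found in 2 of the 8 transcripts, those of SCNN1G and SGK1, and 24.9% of 19652 protein-coding genes hold it in their longest transcript. TGCATG was found in SCNN1A, SCNN1G, SCNN1D, NEDD4L, SGK1 and ST14, and 52.4% of the 19652 hold it. SCNN1B and PRSS8 held neither. Introns were not searched, nor were other forms of either motif, so absence here covers only these exact letters in spliced transcripts. The sites below are both ACTAAC sites and the TGCATG sites of the 3 genes called in at least 1 comparison of PANC-1 groups (SCNN1D, SCNN1A, NEDD4L). The TGCATG sites of SCNN1G, SGK1 and ST14, which were not called, are not shown. Those calls fall on genes chosen with their values in view, so the choice of sites says nothing on a link between motif and response. Each is printed 5′ to 3′ with the motif in capitals, and a match is a description of letters, not a bound site. Whether the cells use these longest transcripts, and so the exons that hold the sites, was not tested.
SCNN1D, RBFOX motif in the 3′ UTR (chr1:1291896-1291901, plus strand): tgtgtctgtgtcTGCATGtccacacgtctg
SCNN1A, RBFOX motif at the end of the 3′ UTR (chr12:6346849-6346854, minus strand): ataaatgtttgtTGCATGaaggaa
NEDD4L, RBFOX motif in the 5′ UTR (chr18:58047421-58047426, plus strand): atgatgaagcatTGCATGaacccagaaaac
NEDD4L, RBFOX motif in the 3′ UTR (chr18:58397584-58397589, plus strand): ccaatgacctgtTGCATGcttcaataccgt
SCNN1G, QKI motif in the coding sequence (chr16:23212852-23212857, plus strand): taaagagtggacACTAACcacaagcctggc
SGK1, QKI motif in the 5′ UTR (chr6:134317511-134317516, minus strand): aaacagatatgcACTAACcaggcgggtgcc

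The deposited values are counts divided by a size factor for each library, and the text calls them normalized counts. Undoing that division gave totals of 292248837 to 376192091 for the 9 PANC-1 libraries. The 3 HPAF-II libraries totalled 226697015 to 309720537. These totals are not reads, since 83.4 to 84.8% of the low values in PANC-1 were multiples of 3, so no counting interval is given. To compare the lines, values were rescaled to a total of 1000000 per library, and these are called rescaled levels. QKI was at 19.7% of its siCtrl level in siQKI and RBFOX2 at 13.6% in siRBFOX2. In the other knockdown, RBFOX2 was at 81.9% in siQKI and QKI at 109.7% in siRBFOX2. The ductal keratins KRT8, KRT18 and KRT19 were abundant in both lines, and with KRT7 they summed to 2116 to 2691 across the 9 PANC-1 libraries against 10281 to 11361 across those of HPAF-II. CDH1, EPCAM, GRHL2, ESRP1 and ELF3 were higher in HPAF-II, and ZEB1, VIM and CDH2 were higher in PANC-1. Among markers of other pancreatic cells, the endocrine and acinar lists were at or near 0 except for SYP, which was at 6.62 ± 0.335 (SD, n = 3) in PANC-1 siCtrl. PTPRC, which marks leukocytes, was listed at 0 in all siCtrl libraries of both lines, while the lysosomal gene CD68 was detected in both.

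SCNN1D, which encodes the delta subunit (chr1:1274010-1292029), showed the widest separation of the 8 genes among those detected throughout PANC-1. Its normalized counts were 508, 578 and 519 in siCtrl, 1419, 1583 and 1498 in siQKI and 811, 896 and 785 in siRBFOX2. The 3 groups occupied separate ranges, with siCtrl lowest, siRBFOX2 between and siQKI highest. The means were 535 ± 37.3, 1500 ± 82.2 and 830 ± 58.2 (SD, n = 3 each). The log2 fold change against siCtrl was 1.49 ± 0.12 (SE) in siQKI, a 2.80-fold difference, and 0.63 ± 0.12 in siRBFOX2, a 1.55-fold difference. Between the knockdowns, siRBFOX2 was lower than siQKI by 0.85 on the log2 scale (value −0.85 ± 0.12). Leaving out any 1 library kept the siQKI value between 1.45 and 1.54. In RNA from whole cultures, more RNA per cell and more cells that express a gene cannot be told apart.

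SCNN1A (chr12:6346846-6377359), the gene for the pore-forming alpha subunit, was higher in siQKI than in the other PANC-1 groups. Its normalized counts were 4891, 5304 and 3829 in siCtrl, 6714, 6126 and 6228 in siQKI and 4354, 4909 and 3731 in siRBFOX2. The siQKI libraries all lay above the libraries of both other groups, and the siCtrl and siRBFOX2 libraries overlapped. The log2 fold change was 0.46 ± 0.11 in siQKI, or 1.37-fold, and −0.11 ± 0.11 in siRBFOX2. In the direct comparison siRBFOX2 stood at −0.56 ± 0.11 relative to siQKI. The locus is crowded: SCNN1A overlaps LTBR by 2200 bases and lies wholly inside the interval that the files give for GAPDH, and the sources used here do not state whether counting used the strand. LTBR was at a rescaled level of 0.76 in siCtrl, 1.03 in siQKI and 0.646 in siRBFOX2, and GAPDH at 3924, 4256 and 4280. The part of either gene in the SCNN1A values was not tested.

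The beta and gamma subunit genes lie next to each other on chromosome 16, SCNN1G at chr16:23182717-23216883 and SCNN1B at chr16:23302270-23381299. SCNN1B had normalized counts of 794, 581 and 599 in siCtrl, 830, 634 and 735 in siQKI and 732, 771 and 759 in siRBFOX2. All 3 groups overlapped, and the log2 differences from siCtrl were 0.16 ± 0.15 and 0.21 ± 0.15. SCNN1G was at 985, 666 and 859 in siCtrl, 698, 504 and 557 in siQKI and 730, 432 and 717 in siRBFOX2. Its mean was lower in both knockdowns, by 0.51 on the log2 scale in siQKI (−0.51 ± 0.21) and at −0.44 ± 0.21 in siRBFOX2, but the siCtrl library at 666 lay within the range of each knockdown group. For both genes the knockdowns differed from each other by less than the standard error, with values of 0.05 ± 0.15 for SCNN1B and 0.07 ± 0.21 for SCNN1G.

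**Figure D1:**
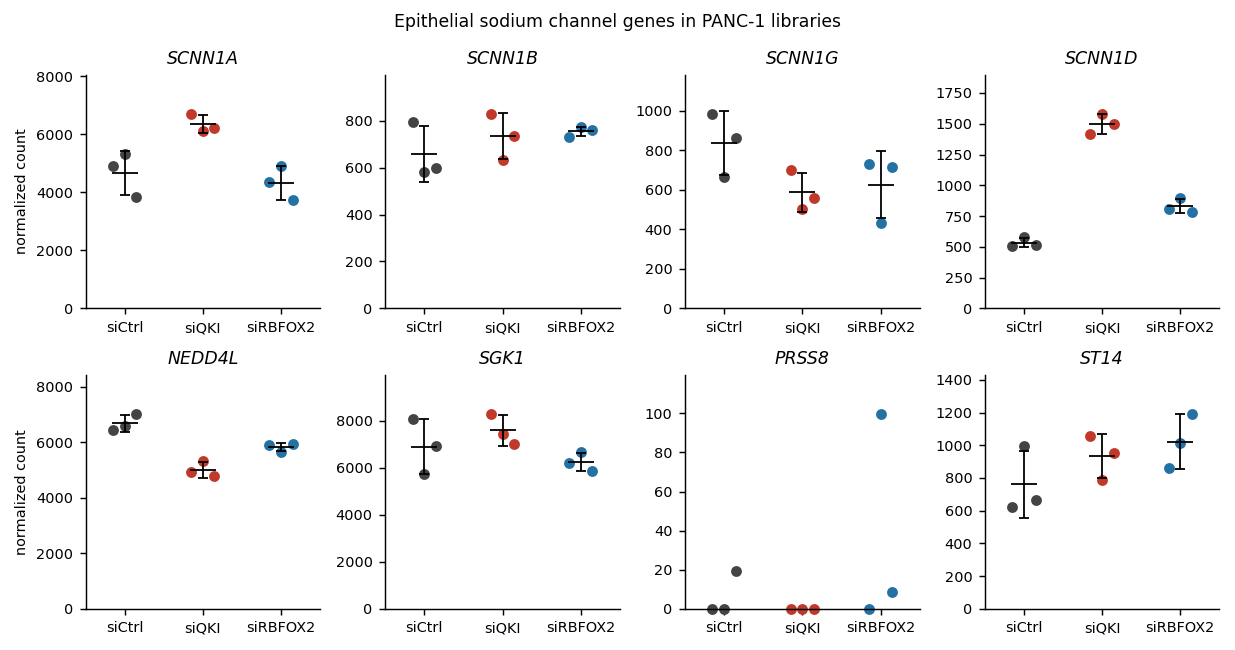
Normalized counts of the 8 genes in the 9 PANC-1 libraries, 1 panel per gene, with points for libraries, a horizontal mark for the group mean and bars for ± 1 SD (n = 3; none drawn for PRSS8). SCNN1D falls into 3 separate ranges, NEDD4L is highest in siCtrl, and PRSS8 is at 0 in 6 of the 9 libraries.

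The ubiquitin ligase gene NEDD4L (chr18:58044226-58401540) was lower in both knockdowns. Its normalized counts were 6445, 6581 and 7022 in siCtrl, 4911, 5308 and 4772 in siQKI and 5898, 5654 and 5940 in siRBFOX2. The groups again occupied separate ranges, here with siCtrl highest and siQKI lowest, the reverse of the order seen for SCNN1D. The log2 fold change was −0.42 ± 0.06 in siQKI, a 1.34-fold decrease, and −0.20 ± 0.06 in siRBFOX2, a 1.15-fold decrease. The direct comparison placed siRBFOX2 above siQKI by 0.22 ± 0.06.

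SGK1 (chr6:134169251-134318112), the kinase gene that opposes NEDD4L, did not separate from siCtrl in either knockdown. Normalized counts were 8049, 5715 and 6904 in siCtrl, 8286, 7430 and 7019 in siQKI and 6216, 6647 and 5846 in siRBFOX2. The siCtrl libraries spanned most of the range of both knockdown groups, and the log2 differences were 0.15 ± 0.10 in siQKI and −0.13 ± 0.10 in siRBFOX2. The knockdown groups did not overlap each other, with siRBFOX2 at −0.28 ± 0.10 relative to siQKI.

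Among the protease genes, ST14 (chr11:130159782-130210367) was at 620, 996 and 667 in siCtrl, 1056, 788 and 952 in siQKI and 860, 1016 and 1192 in siRBFOX2. The siCtrl library at 996 lay inside both knockdown ranges, and the log2 differences were 0.31 ± 0.18 and 0.45 ± 0.18. PRSS8 (chr16:31131433-31135727) was listed at 0 in 2 siCtrl libraries and at 19.1 in the third one, at 0 in all 3 siQKI libraries, and at 0, 99.8 and 8.34 in siRBFOX2. It passed the filter on low values, a mean of at least 10 normalized counts over the 9 PANC-1 libraries, mainly through that 1 siRBFOX2 library at 99.8, and no fold change is given for it.

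All 8 genes passed this filter, together with 22544 genes in all that entered the limma fit. Of the 8, 2 were called higher (SCNN1A, SCNN1D) and 1 lower (NEDD4L) in siQKI at an adjusted p under 0.05, where 14.9% of all genes tested were called higher and 18.1% lower. The siQKI and siCtrl libraries did not overlap for those 3 genes, and 44.7% of all genes tested were apart in this way. In siRBFOX2, 1 gene was called higher (SCNN1D) and 1 lower (NEDD4L), against 12.0% higher and 14.5% lower over all genes. The same genes were those whose siRBFOX2 and siCtrl libraries were apart, against 37.9% of all genes. Between the knockdowns, 1 gene was called higher in siRBFOX2 (NEDD4L) and 2 lower (SCNN1A, SCNN1D), against 11.6% and 9.93%. There 4 genes had libraries apart, SGK1 being the other one, against 35.2%. Since the values of these contrasts were in view when the genes were chosen, nothing is read from the counts. Both knockdowns share the 3 siCtrl libraries, so their differences from siCtrl are not independent of each other.

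**Figure D2:**
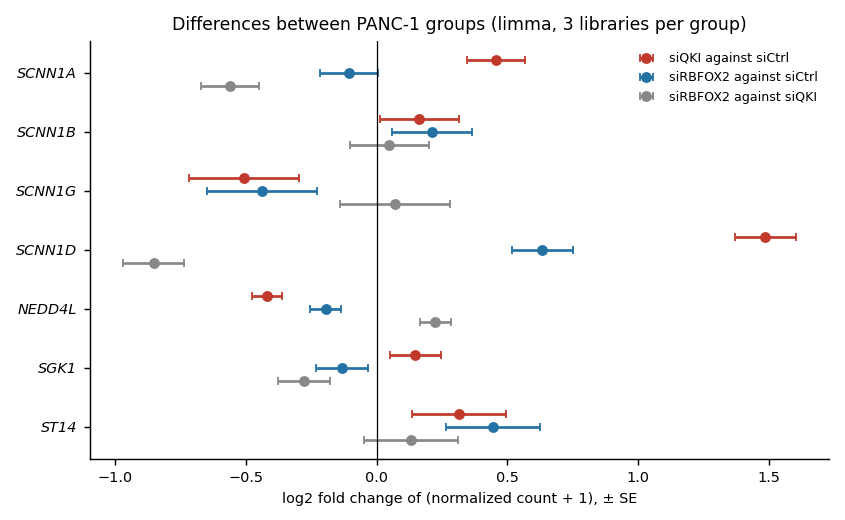
Log2 fold changes of 7 genes between the PANC-1 groups on the log2(normalized count + 1) scale, with points for the limma estimate and bars for ± 1 SE (3 libraries per group; PRSS8 is left out as it is near 0). SCNN1D lies farthest to the right in siQKI at 1.49 and at 0.63 in siRBFOX2, while NEDD4L lies left of 0 in both.

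HPAF-II differed from PANC-1 at least 2-fold in 7 of the 8 genes, upwards in both proteases and in SCNN1A and downwards in the other subunits and SGK1. ST14 was at rescaled levels of 407, 371 and 444 in HPAF-II and 1.83, 2.86 and 1.93 in PANC-1 siCtrl, a 187-fold difference, or 7.55 on the log2 scale of rescaled level + 0.01. PRSS8 was at 140, 130 and 164 in HPAF-II, whereas it was listed at 0, 0 and 0.0554 in PANC-1 siCtrl. In PANC-1, then, ST14 was detected in every library whereas PRSS8 was at or near 0. PRSS8 lies inside the interval of TRIM72, which was at 0.0325 in HPAF-II.

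SCNN1A was at 84.4, 89.0 and 118 in HPAF-II against 14.4, 15.2 and 11.1 in PANC-1 siCtrl, which is 7.13-fold higher (log2 ratio 2.83). LTBR, which overlaps it, was at 101 in HPAF-II against 0.76 in PANC-1, and GAPDH was at 4620 against 3924, and again their part in the SCNN1A values was not tested. The other subunits went the opposite way. SCNN1B was listed at 0, 0 and 0.0161 in HPAF-II against 2.34, 1.67 and 1.73 in PANC-1. SCNN1G was listed at 0 in all 3 HPAF-II libraries against 2.91, 1.91 and 2.49 in PANC-1. SCNN1D was at 0.838, 0.187 and 0.872 in HPAF-II against 1.5, 1.66 and 1.504 in PANC-1, a log2 ratio of −1.56. That ratio rests partly on the second HPAF-II library, and without it the value was −0.85, which is under a 2-fold difference. No fold change is given for SCNN1B and SCNN1G, because HPAF-II libraries were at 0.

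**Figure D3:**
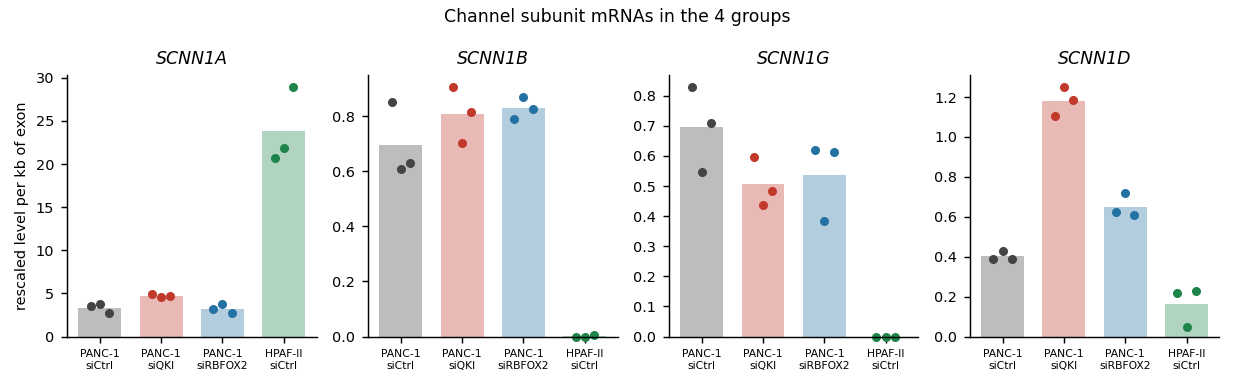
Rescaled level per kb of exon for the 4 subunit genes in the 4 groups, with bars for group means and points for the 3 libraries of each group; every panel has its own axis from 0. SCNN1A is highest in HPAF-II, whereas SCNN1B and SCNN1G are at or near 0 there.

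Per length, the subunit mix differed between the lines. SCNN1A made up 64.9 ± 4.80% (SD, n = 3) of the summed level per kb of exon of the 4 subunit genes in PANC-1 siCtrl, with 13.6 ± 1.95% for SCNN1B, 13.6 ± 3.01% for SCNN1G and 7.92 ± 0.923% for SCNN1D. In HPAF-II the SCNN1A share was 99.3 ± 0.419%, SCNN1D held 0.678 ± 0.416%, and the highest SCNN1B share in any library was 0.0201%. All shares and summed levels in this paragraph rest on SCNN1A values in which the part of LTBR and GAPDH was not tested. Among the PANC-1 groups the SCNN1A share stayed at 65.5 ± 0.236% in siQKI and 61.2 ± 4.11% in siRBFOX2. The delta share was 16.4 ± 1.67% in siQKI and 12.4 ± 0.393% in siRBFOX2, both above every siCtrl library, and the gamma share was 6.99 ± 0.833% in siQKI, below every siCtrl library. The summed level per kb was 5.13 ± 0.604 in siCtrl, 7.22 ± 0.297 in siQKI, 5.24 ± 0.469 in siRBFOX2 and 24.0 ± 4.49 in HPAF-II. Within PANC-1 siCtrl the order of levels per kb was SCNN1A (3.34 ± 0.54), SGK1 (3.16 ± 0.579), NEDD4L (1.70 ± 0.0698), SCNN1B (0.696 ± 0.135), SCNN1G (0.695 ± 0.143), ST14 (0.624 ± 0.161), SCNN1D (0.403 ± 0.0235) and PRSS8 near 0. On these lengths SCNN1A and SGK1 did not differ beyond their spread, and neither did SCNN1B, SCNN1G and ST14. The lengths join the exons of all transcripts of a gene, 6.342 kb for SGK1 and 4.071 kb for SCNN1A. Their longest protein-coding transcripts are 3.201 and 3.481 kb, so the order of SCNN1A and SGK1 depends on the length used. In HPAF-II the order began with ST14 (115 ± 10.3), PRSS8 (77.4 ± 9.26) and SCNN1A (23.8 ± 4.44).

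The regulators of channel turnover differed less between the lines. SGK1 was at rescaled levels of 8.34, 5.95 and 5.55 in HPAF-II against 23.8, 16.4 and 20.0 in PANC-1 siCtrl, which is 3.04-fold lower (log2 ratio −1.61). NEDD4L was at 24.1, 24.8 and 21.6 against 19.0, 18.9 and 20.3. Its log2 ratio was 0.27, and the sign depended on scaling, with −0.06 under upper-quartile rescaling and −0.0034 from the deposited values without rescaling. Of the 8 genes, 3 were at least 2-fold higher in HPAF-II (SCNN1A, PRSS8, ST14) and 4 at least 2-fold lower, against 26.1% and 27.1% of 24673 genes compared. On rescaled levels the libraries of the lines did not overlap for any of the 8, against 63.7% of all genes. For NEDD4L the normalized counts without rescaling did overlap, at 6748, 7135 and 6142 in HPAF-II and 6445, 6581 and 7022 in PANC-1 siCtrl. The levels of the 8 genes in both lines were also in view when the set was chosen, and the counts are a description only.

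**Figure D4:**
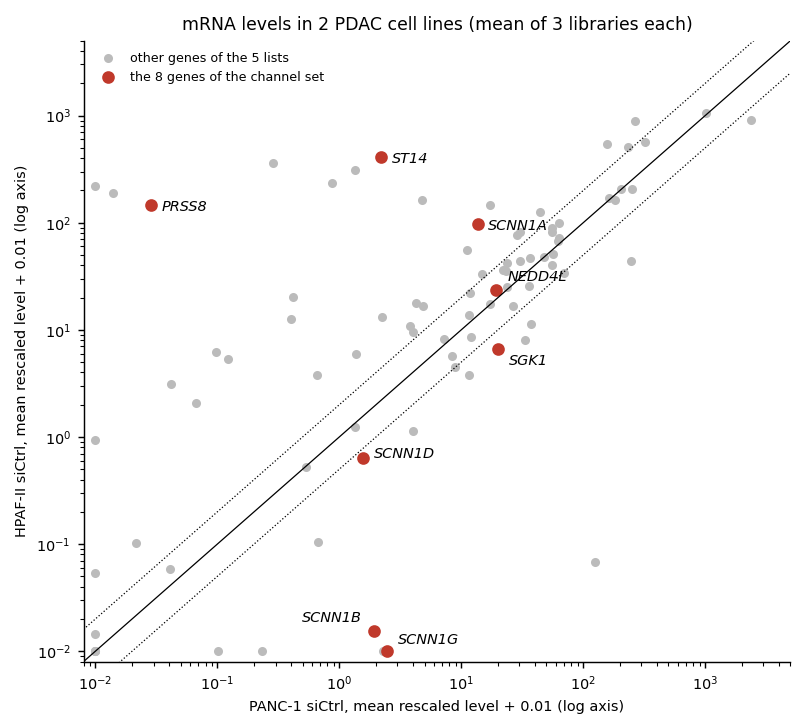
Mean rescaled level + 0.01 in HPAF-II siCtrl (vertical log axis) against PANC-1 siCtrl (horizontal log axis), 3 libraries per line, for the 8 genes (red) and the other genes of 5 pathway lists (gray). The solid line marks equal levels and the dotted lines a 2-fold difference; ST14, PRSS8 and SCNN1A lie above, SCNN1B and SCNN1G at the bottom, and NEDD4L near equality.

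Other genes of the pathway were taken from 5 lists with 79 genes in all, of which 70 passed the filter and were tested with limma. The lists, too, were chosen with earlier results of these data known. Their shares and adjusted p-values, here and below, are therefore a description and not independent support. In siQKI 12 of the 70 were higher and 20 lower, in siRBFOX2 9 were higher and 26 lower, and between the knockdowns 12 were higher and 13 lower in siRBFOX2. As shares this was 17.1% higher and 28.6% lower in siQKI, beside 14.9% and 18.1% of all genes tested. In siRBFOX2 it was 12.9% and 37.1%, beside 12.0% and 14.5%, and between the knockdowns 17.1% and 18.6%, beside 11.6% and 9.93%. The median log2 fold change over the 70 was −0.04 in siQKI and −0.06 in siRBFOX2, beside 0.03 and 0.01 over all genes tested. The changes were not larger in size than over all genes. Their median absolute log2 fold change was 0.25 in siQKI and 0.22 in siRBFOX2, beside 0.29 and 0.25. Under upper-quartile rescaling the split became 11 higher and 19 lower in siRBFOX2, and 6 higher and 17 lower between the knockdowns. In siQKI the calls ranged from 8 to 15 higher and from 17 to 23 lower over 17 alternative settings.

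Among channel-cleaving proteases and their inhibitors, 12 of 16 genes were tested, and 2 were higher and 2 lower in siQKI against 1 and 3 in siRBFOX2 (16.7% and 16.7%, and 8.33% and 25.0%). TMPRSS2, a transmembrane serine protease, rose in siQKI from 1293 ± 188 to 2642 ± 454 normalized counts (log2 fold change 1.03 ± 0.13, limma adjusted p = 1.99e-05) and in siRBFOX2 to 2348 ± 274 (0.86 ± 0.13, limma adjusted p = 0.000161). PRSS22, a tryptase-like serine protease, fell from 2475 ± 45.1 to 1030 ± 46.2 in siQKI (−1.26 ± 0.09, limma adjusted p = 9.78e-08) and to 1291 ± 115 in siRBFOX2 (−0.94 ± 0.09, limma adjusted p = 3.53e-06). PLAU, the urokinase gene, fell in both, by 0.49 on the log2 scale in siQKI (−0.49, limma adjusted p = 9.51e-07) and by 0.56 in siRBFOX2 (−0.56, limma adjusted p = 5.23e-07). SPINT2, an inhibitor of matriptase and prostasin, fell in siRBFOX2 from 825274 ± 19464 to 704745 ± 27009 (−0.23 ± 0.04, limma adjusted p = 0.000835).

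The list of corticosteroid receptors, SGK kinases and WNK-pathway kinases was tested in full, at 21 genes. In siQKI 7 were higher and 8 lower (33.3% and 38.1%), and in siRBFOX2 3 were higher and 5 lower (14.3% and 23.8%). OXSR1, a kinase that acts on sodium-chloride cotransporters, rose from 9785 ± 265 to 20542 ± 1308 in siQKI (1.07 ± 0.05, limma adjusted p = 1.52e-09) and to 18618 ± 813 in siRBFOX2 (0.93 ± 0.05, limma adjusted p = 1.50e-08). Its partner kinase STK39 rose from 5880 ± 98.0 to 7522 ± 348 in siQKI (0.35 ± 0.05, limma adjusted p = 6.74e-05) and to 8251 ± 71.9 in siRBFOX2 (0.49 ± 0.05, limma adjusted p = 5.55e-06). MLST8, a subunit of the mTOR complexes, fell in siQKI from 21958 ± 377 to 12299 ± 101 (−0.84 ± 0.04, limma adjusted p = 1.13e-09). In siRBFOX2 MLST8 fell less, by −0.26 to −0.20 over 17 alternative settings, and was called in 17 of them. RICTOR, a subunit of mTOR complex 2, fell in siRBFOX2 from 1664 ± 119 to 1138 ± 80.0 (−0.55 ± 0.12, limma adjusted p = 0.00303) and was at −0.08 ± 0.12 in siQKI. PRR5L, which binds that complex, rose in siQKI from 30.4 ± 14.5 to 89.3 ± 28.2 (1.57 ± 0.54, limma adjusted p = 0.036). That call was lost without the first or the third siCtrl library (adjusted p = 0.107 and 0.0913) and without the first or the third siQKI library (0.0949 and 0.14). MLST8 was higher in siRBFOX2 than in siQKI by 0.60 ± 0.04 (limma adjusted p = 9.39e-08). NDRG1, a substrate of SGK1, fell in siQKI from 3811 ± 101 to 2525 ± 171 (−0.60 ± 0.09, limma adjusted p = 0.000134). In siRBFOX2 NDRG1 was at −0.41 to −0.21 over 17 alternative settings and was called in 11 of them. SGK2, a relative of SGK1, rose in siQKI from 141 ± 15.5 to 259 ± 20.6 (0.87 ± 0.25, limma adjusted p = 0.0149), and lost the call without the first siQKI library (adjusted p = 0.0502) or without the second one (adjusted p = 0.0526).

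Of the ubiquitin ligase and deubiquitinase genes, 17 of 17 were tested. In siQKI 1 was higher and 6 lower (5.88% and 35.3%), and in siRBFOX2 2 were higher and 10 lower (11.8% and 58.8%), against the shares over all genes given above. The list medians were −0.09 and −0.16. WWP2, a HECT-type ligase of the same family as NEDD4L, fell in siQKI from 8083 ± 465 to 5482 ± 159 (−0.56 ± 0.06, limma adjusted p = 1.82e-06). In siRBFOX2 WWP2 was at −0.22 to −0.14 over 17 alternative settings and was called in 12 of them. The deubiquitinase UCHL3 fell in siQKI by 0.54 (−0.54 ± 0.06, limma adjusted p = 9.29e-06) and in siRBFOX2 by 0.32 (−0.32 ± 0.06, limma adjusted p = 0.00131). NEDD4, the closest relative of NEDD4L, differed between the knockdowns, with means of 12666 ± 858 in siCtrl, 14739 ± 933 in siQKI and 9798 ± 511 in siRBFOX2. It fell in siRBFOX2 (−0.37 ± 0.06, limma adjusted p = 0.000398), and siRBFOX2 was lower than siQKI (−0.59 ± 0.06, limma adjusted p = 7.28e-06). NDFIP2, an adaptor that recruits these ligases, fell in siRBFOX2 from 7570 ± 114 to 5786 ± 222 (−0.39 ± 0.05, limma adjusted p = 8.75e-05).

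Ion transport genes that work beside ENaC were tested for 16 of 20. In siQKI 1 was higher and 3 lower (6.25% and 18.8%), and in siRBFOX2 2 were higher and 7 lower (12.5% and 43.8%). KCNMA1, a calcium-activated potassium channel, fell in siQKI from 42832 ± 649 to 32110 ± 546 (−0.42 ± 0.04, limma adjusted p = 1.31e-06) and in siRBFOX2 to 26408 ± 1104 (−0.70 ± 0.04, limma adjusted p = 1.57e-08). KCNN4, another potassium channel of that kind, fell in siRBFOX2 from 5106 ± 225 to 3174 ± 458 (−0.70 ± 0.09, limma adjusted p = 4.27e-05). ANO1, a calcium-activated chloride channel, was higher in siRBFOX2 (735 ± 113) than in siQKI (339 ± 57.2), a log2 difference of 1.12 ± 0.18 (limma adjusted p = 0.000394). Of the acid-sensing channels, the ENaC relatives, 4 of 5 were tested, and in each knockdown 1 was higher (ASIC3) and 1 lower (ASIC2). ASIC3 was at 179 ± 61.0 in siCtrl, 360 ± 163 in siQKI (0.96 ± 0.33, limma adjusted p = 0.037) and 344 ± 69.7 in siRBFOX2 (0.98 ± 0.33, limma adjusted p = 0.0409). Leaving out the third siCtrl library ended both ASIC3 calls (adjusted p = 0.166 and 0.178), as did leaving out the second one (0.0619 and 0.0695) or the third siQKI library (0.0819 and 0.0527). The siQKI call was also lost without the second siQKI library (0.196), and the siRBFOX2 call without the second or the third siRBFOX2 library (0.135 and 0.0994). ASIC2 fell in siRBFOX2 from 784 ± 142 to 464 ± 27.7 (−0.74 ± 0.16, limma adjusted p = 0.00279) and was at 515 ± 32.0 in siQKI (−0.59 ± 0.16, limma adjusted p = 0.00967), where the call was lost without the third siCtrl library (adjusted p = 0.0576). None of these 4 was called between the knockdowns by limma, and none was under 0.05 unadjusted.

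**Figure D5:**
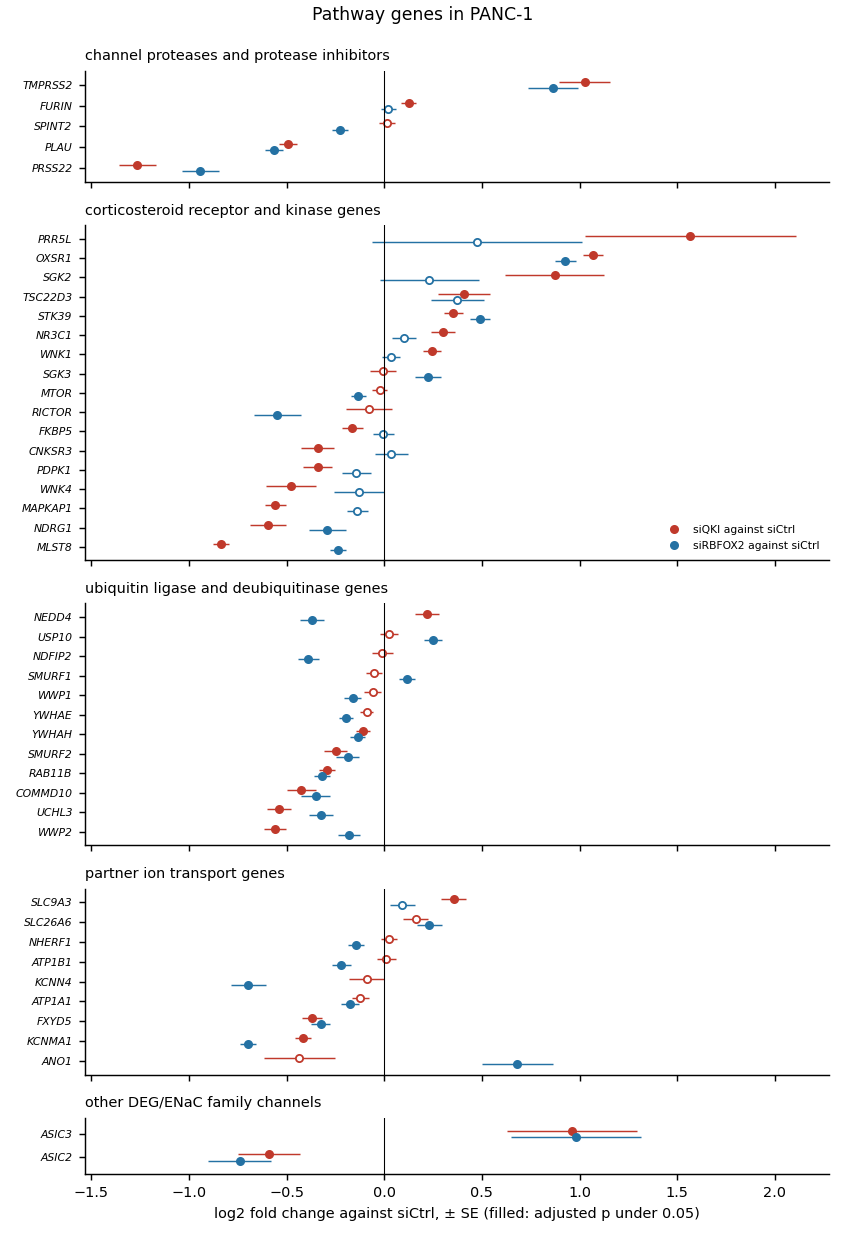
Log2 fold changes against siCtrl of the 45 drawn pathway genes, grouped by list, in siQKI (red) and siRBFOX2 (blue), with points for limma estimates, bars for ± 1 SE (3 libraries per group) and filled points for an adjusted p under 0.05. Of 47 genes called in at least 1 knockdown, HSD11B1, at or near 0 in both, and 1 gene not reported here are left out; TMPRSS2 and OXSR1 lie on the right and PRSS22 on the left in both.

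Between the lines, 75 of the 79 pathway genes could be compared, and 31 were at least 2-fold higher and 13 at least 2-fold lower in HPAF-II, with a median log2 ratio of 0.63 beside 0.02 over all genes compared. These are shares of 41.3% and 17.3%, beside 26.1% and 27.1% of all genes. In the list of proteases and inhibitors, 9 of 15 genes were at least 2-fold higher and 3 lower in HPAF-II. The 3 lower genes were PRSS27, PLAU (5.66-fold) and SPINT2 (2.72-fold). PRSS27 was at rescaled levels of 0.0529, 0.012 and 0.216 in HPAF-II against 0.593, 0.712 and 0.667 in PANC-1 siCtrl. Its fold depends on the pseudocount, so none is given. TMPRSS4 was at rescaled levels of 161, 141 and 264 in HPAF-II against 0, 0.00287 and 0.00874 in PANC-1. SPINT1, a matriptase inhibitor, was at 163 ± 47.1 in HPAF-II and 4.75 ± 0.381 in PANC-1, which is 33.4-fold higher. TMPRSS3 was at 0.309, 1.54 and 0.949 in HPAF-II and listed at 0 in PANC-1.

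Of 21 genes in the corticosteroid list, 9 were at least 2-fold higher in HPAF-II, 4 at least 2-fold lower and 8 under 2-fold apart, with a list median of 0.23. SGK2 was at 20.4 ± 4.23 against 0.41 ± 0.0399 (48.0-fold), HSD11B2, which inactivates cortisol, at 12.7 ± 1.03 against 0.393 ± 0.0945 (32.0-fold), and NR3C2, the mineralocorticoid receptor, at 2.05 ± 0.429 against 0.0564 ± 0.0114 (30.9-fold). SGK1, by contrast, was lower in HPAF-II, as given above. The ubiquitin list showed the smallest spread, with 2 of 17 genes at least 2-fold apart, COMMD1 (4.23-fold lower) and COMMD10 (3.26-fold lower). COMMD1 overlaps the more abundant gene CCT4, and that overlap was not tested.

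In the ion transport list, 12 were at least 2-fold higher in HPAF-II and 3 lower. FXYD3, a regulator of the sodium pump, was at 179, 159 and 327 in HPAF-II and listed at 0 in PANC-1. The water channels AQP5 and AQP3 were at 359 ± 192 against 0.274 ± 0.147 and 235 ± 79.5 against 0.859 ± 0.203. KCNMA1 went the other way, at 0, 0.16 and 0.0129 in HPAF-II against 126, 121 and 126 in PANC-1. ASIC2 was listed at 0 in HPAF-II and was at 1.84, 2.37 and 2.61 in PANC-1. CFTR, which marks differentiated duct cells, was listed at 0 in all 6 siCtrl libraries.

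Markers of cell state and of other cell types also moved between the PANC-1 groups. CDH1 (E-cadherin) was at a mean of 987, 2610 and 1431 normalized counts in siCtrl, siQKI and siRBFOX2, the same order of groups as SCNN1D, with log2 fold changes of 1.39 ± 0.11 (limma adjusted p = 1.54e-07) and 0.53 ± 0.11 (limma adjusted p = 0.00177). Of the epithelial and mesenchymal list, 7 of 8 genes were tested, GRHL2 being near 0 in PANC-1. In siQKI CDH1, ELF3 and CDH2 rose and ZEB1 and VIM fell, while EPCAM (−0.12 ± 0.07) and ESRP1 (0.62 ± 0.28) did not pass the threshold. In siRBFOX2 CDH1 and CDH2 rose, and the other 5 did not pass. The summed rescaled level of 4 fibroblast markers was 12.1 to 13.9 in siCtrl, 25.9 to 29.3 in siQKI and 15.3 to 23.0 in siRBFOX2, most of it COL1A1, with DCN listed at 0 in all 9 libraries. The ductal keratins KRT8, KRT18 and KRT19 fell in siRBFOX2 (−0.23 ± 0.04, −0.35 ± 0.05 and −0.23 ± 0.04, limma adjusted p = 0.000778, 0.000128 and 0.000595), and KRT18 fell in siQKI (−0.20 ± 0.05, limma adjusted p = 0.00716). The intervals of KRT8 and KRT18 overlap by 1006 bases, so reads there could be counted for either. SYP, the endocrine marker detected in PANC-1, fell in siQKI (−0.52 ± 0.08, limma adjusted p = 0.000163) and in siRBFOX2 (−0.57 ± 0.08, limma adjusted p = 0.00013), and the 4 endocrine markers summed to 6.27 to 6.91 in siCtrl, 4.61 to 5.09 in siQKI and 4.56 to 4.94 in siRBFOX2. The sum of 4 leukocyte and endothelial markers, nearly all of it CD68, was 144 to 167, 116 to 118 and 126 to 133. The part of these markers in the values of the channel genes was not tested.

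The genes whose profiles over the 9 PANC-1 libraries were most like those of SCNN1D and SCNN1A, the 2 genes of the set with the widest range of group means above a mean of 50, were looked up among 15249 named genes. Likeness is given as Pearson's r on log2(normalized count + 1). The points share the siRNA groups, so r partly follows the group means and no p is given. For SCNN1A, whose siCtrl and siRBFOX2 libraries overlapped, r also reflects differences between replicates. For SCNN1D the closest were BAIAP2-DT (r = 0.990), SLC38A10 (0.989), GSE1 (0.989), MBOAT2 (0.989) and PCYOX1L (0.988). PCYOX1L was at 811 ± 62.7, 2363 ± 99.3 and 1226 ± 128 normalized counts in siCtrl, siQKI and siRBFOX2. For SCNN1A, the pseudogene OR7E14P (0.992), LSP1 (0.972), MINAR1 (0.968) and TMEM259 (0.964) were among the 5 closest.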

How the data were processed

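Polyadenylated RNA of PANC-1 and HPAF-II cells was sequenced with the Universal Plus mRNA-Seq kit. For each line the authors deposited 1 table of signal values, in which counts per FAST DB gene (hg38) had been scaled with DESeq2 size factors. The submitters' processing notes name STAR 2.7.5a, SAMtools, Picard, FastQC and DESeq2, and strand and read-pair handling are not given in the sources used here. Multiplying by the size factor gave whole steps (tolerance 0.01), but because low values were mostly multiples of 3, such a step cannot be 1 read and no count test was run.

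PANC-1 values were tested with limma 3.58.1 in R 4.3.3 (1 fit of 9 libraries, eBayes with trend) on log2(normalized count + 1), for 22544 genes with a mean of at least 10, with Benjamini-Hochberg adjustment over all of them and a threshold of 0.05. Fold changes on this scale understate changes of low genes. HPAF-II and PANC-1 siCtrl tables were normalized separately, so each library was rescaled to 1000000 and compared without a test, as log2 ratios with a pseudocount of 0.01. Levels per kb used the joined exon length over all basic transcripts of the GENCODE v29 gene. Python 3.11.15 and pandas 2.3.3 were used for the tables.

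The members and gene lists were chosen with earlier results of these data known. Pathway genes were named where called with a fold change of at least 1.5, or among the 4 largest changes of their list. For the lines the 4 largest log2 ratios of each list could be named. CFTR, PRSS27, PLAU and SPINT2 between the lines and the overlapping genes were named after their values were seen. Overlapping genes are uncertain. Single values of 2 genes that the rule would name are not reported here. Replicate numbers did not pair the libraries: none of 9 same-numbered pairs correlated above 0.1 (r from −0.0325 to 0.0235). Alternatives changed the pseudocount, filter, scaling, trend, samples in the fit and each library in turn.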

Additional observations from a re-analysis of the deposited data

How the results depend on the processing

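Of 564 values recomputed under the alternatives, 552 stayed the same, 12 moved further and 0 called differences changed sign. Many of the single-gene values could not differ from the main value. Changing the filter or the trend, adding the replicate block or fitting only the 2 groups compared leaves a gene's log2 fold change unchanged. So does leaving out a library of the group not compared. Those settings say nothing on how stable the fold changes are. A count of genes was taken as the same within 1.5-fold of its main value. The value of a single gene was taken as the same when it moved by less than its spread between replicates. The side of the threshold was no part of this rule, so it does not show whether single calls held. Upper-quartile rescaling, which takes the median log2 fold change of all genes in siQKI from 0.03 to 0.11, moved NEDD4L in siQKI to −0.34. It also moved the log2 ratios of HPAF-II to PANC-1 to 2.50 for SCNN1A, −0.058 for NEDD4L, −1.94 for SGK1 and 7.21 for ST14. Deposited values without rescaling gave 2.56 for SCNN1A, −0.0034 for NEDD4L and 7.28 for ST14. Leaving out 1 library at a time gave 26 to 35 pathway genes called in siQKI, 26 to 35 in siRBFOX2 and 17 to 24 between the knockdowns. Higher calls in siRBFOX2 fell to 5 without siCtrl replicate 2 or without siRBFOX2 replicate 1, and higher calls between the knockdowns to 7 without siQKI replicate 2 and to 6 under upper-quartile rescaling. With the replicate block, 31 pathway genes were called in siQKI, 36 in siRBFOX2 and 25 between the knockdowns, and the libraries shared only a number (3 of 9 correlated best with their own number). Of 52 calls named by the rule, 40 held under every alternative and 12 were lost under at least 1, among them PRR5L, ASIC3, FURIN and HSD11B1 in siQKI. With 3 libraries per group and no read counts, the depth behind single values is unknown, and values near 0 cannot be told from failed estimates.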
